A study of Mus musculus with 3 samples.

Results

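The genes described here encode corepressors that work with histone deacetylases, which are Tbl1xr1, Tbl1x, Ncor1, Hdac3 and Gps2 of the NCoR complex, Sin3a and Sin3b of the SIN3 complex, and Rcor1 and Rcor2 of the CoREST complex. They were taken from a list of gene names with no threshold on their values, although the list was drawn up with earlier results of these data known, and 9 of 9 were matched to an NCBI Gene ID and listed in all 3 libraries, out of 16742 genes listed in any library. The control library held lin- bone marrow cells (marrow depleted of cells with mature lineage markers) pooled from 3 wild type C57BL/6 mice. Those of TR1 and TR9 held sorted GFP+ bone marrow cells with the genotype TBLR1-RARa (TR), each pooled from 3 C57BL/6 mice of the third transplant generation of the leukemia that arose in a primary recipient, mouse number 1 or number 9. The leukemias were passed on through spleen cells, and recipients keep marrow cells of their own. All 3 libraries are labelled with an age of 6 to 8 weeks. In the TR lines a murine retroviral vector drives TBLR1-RARa together with GFP, and each line stands for the leukemia of 1 primary mouse. Control cells received no vector and were not sorted for GFP. Since there was 1 library per condition, a difference below is between libraries and has no replicate check.

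Nuclear receptors such as RARα repress genes when no ligand is bound, and they do so by binding large scaffold proteins such as NCoR (Ncor1). The scaffold carries the deacetylase HDAC3, which it also activates, the small subunit GPS2, and the WD40 proteins TBL1 (Tbl1x) and TBLR1 (Tbl1xr1), which take part in exchanging corepressors for coactivators when ligand binds. SIN3A and SIN3B are scaffolds for HDAC1 and HDAC2, and the CoREST proteins RCOR1 and RCOR2 join HDAC1 or HDAC2 to the histone demethylase LSD1 (Kdm1a). TBLR1 is the fusion partner of RARα in this leukemia, so the fusion joins a subunit of the corepressor complex to a receptor that recruits it.

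The promoters of the CoREST pair are shown because Rcor1 and Rcor2 were the members with the largest differences between the libraries. The windows run from 250 bases before to 50 bases after the transcription start in RefSeq (GRCm38.p6, plus strand for both genes), with each CG dinucleotide in capitals. They lie at chr12:111039117-111039416 (Rcor1) and chr19:7267144-7267443 (Rcor2).
Rcor1: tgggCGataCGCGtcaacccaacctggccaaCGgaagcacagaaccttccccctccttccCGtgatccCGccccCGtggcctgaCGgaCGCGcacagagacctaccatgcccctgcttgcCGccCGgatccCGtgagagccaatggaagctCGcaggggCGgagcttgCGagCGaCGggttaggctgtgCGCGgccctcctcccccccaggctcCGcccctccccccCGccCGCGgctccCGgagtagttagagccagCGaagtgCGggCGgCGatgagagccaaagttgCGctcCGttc
Rcor2: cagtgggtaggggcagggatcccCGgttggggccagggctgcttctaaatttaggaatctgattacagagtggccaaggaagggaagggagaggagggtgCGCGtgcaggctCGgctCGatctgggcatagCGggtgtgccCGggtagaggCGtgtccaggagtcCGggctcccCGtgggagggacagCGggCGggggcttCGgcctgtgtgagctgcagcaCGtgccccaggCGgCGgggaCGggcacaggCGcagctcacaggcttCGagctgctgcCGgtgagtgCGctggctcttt
The Rcor1 window held 31 CG dinucleotides and a GC content of 69.3%, and the Rcor2 window held 21 and 67.3%. Over 32851 promoter windows of the same length the medians were 7 CG dinucleotides and 52.7% GC. The retinoid receptor half-site AGGTCA, searched on both strands, was found in neither window, and 16.3% of all windows held it.

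Expected counts summed to between 5129662 and 5571409 per library. Levels are given as FPKM, which is the count divided by transcript length and library total. Log2 ratios compare FPKM between 2 libraries, and the 95% interval behind each covers counting error only. A differentially expressed gene (DEG) had an absolute log2 ratio of at least 1 and a false discovery rate of at most 0.001 in a Poisson comparison of the counts, as in the methods of the study. The ratio of a typical gene was not 0, since the median over all listed genes was -0.29 in TR1 and -0.12 in TR9 against control. TMM scaling, which levels the bulk of the genes, adds 0.24 to each TR1 ratio and 0.11 to each TR9 ratio. It also turns the split of TR1 DEGs from 2120 lower and 1317 higher into 1615 lower and 1674 higher.

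Of the 9 corepressor genes, 2 were DEGs in TR1, Rcor1 and Rcor2, and both were lower than in control. In TR9 the only DEG among them was Rcor2, also lower. Among all genes tested, 13% were lower DEGs and 8.09% higher DEGs in TR1, and 10.8% and 9.37% in TR9, and 1 or 2 of 9 genes is near these shares. Rcor2 was the 1 member lower in both lines, and 0 were higher in both, against 8.39% and 5.67% of all genes. The median over the members was -0.48 (TR1) and -0.20 (TR9), or -0.24 and -0.09 with TMM scaling. In TR1, 8 of the 9 ratios were below 0, or 6 with TMM scaling, and in TR9 6 were below 0 with either scaling. The other 7 genes in TR1 and 8 genes in TR9 stayed within 2-fold of control. Between the lines, 0 of 9 members were DEGs, against 2.31% lower and 4.34% higher (6.65% together) among all genes, and by the fold alone 1 member, Rcor2, passed.

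**Figure D1:**
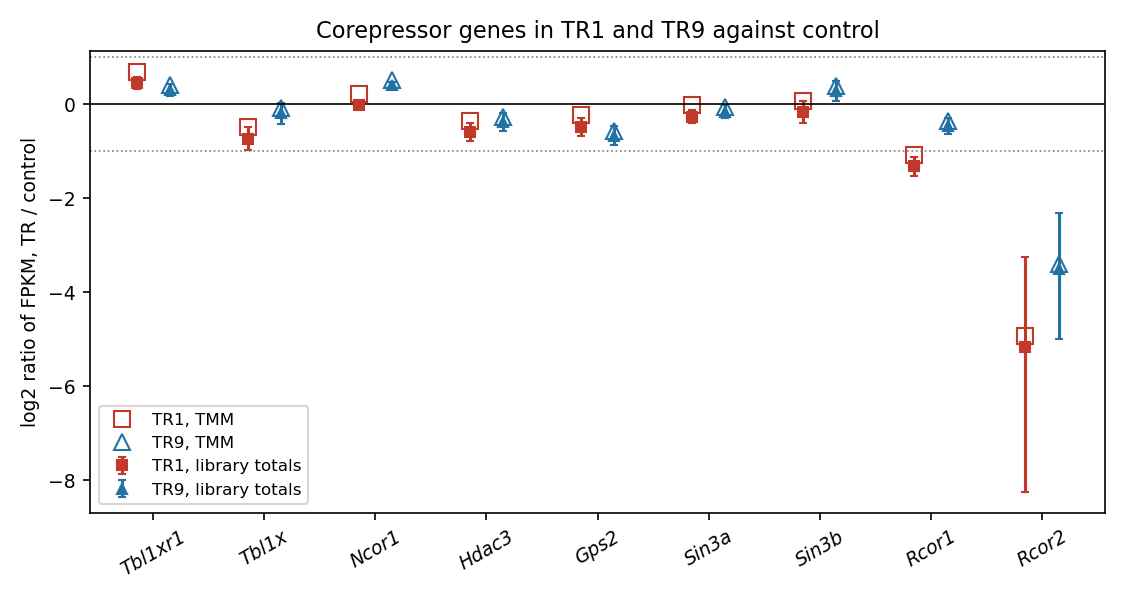
Log2 ratio of FPKM (y axis) of each corepressor gene (x axis) in TR1 (red squares) and TR9 (blue triangles) against control, with 95% counting intervals as bars. Filled symbols use library totals, open symbols use TMM scaling, the solid line is 0 and dotted lines mark a log2 ratio of 1 in size; Rcor2 at -5.17 and -3.50, and Rcor1 in TR1 at -1.32, lie below the lower dotted line.

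Rcor2, a CoREST scaffold best known from stem and neural cells, was the member that differed most. Its gene spans 7267325 to 7275225 of chromosome 19 (positions of genes are from GRCm38, GENCODE M21). Rcor2 had 72 expected counts (control), 2 (TR1) and 6 (TR9), which are levels of 6.46, 0.18 and 0.57 FPKM. Control was above both TR libraries, which were near the limit of detection at this depth, although Rcor2 was the lowest member in control too. The log2 ratio against control was -5.17 in TR1 (95% interval -8.24 to -3.26), 35.9-fold lower, and -3.50 in TR9 (-4.996 to -2.31), 11.3-fold lower. The TR libraries did not differ from each other beyond counting error, with a log2 ratio of 1.66 for TR9 over TR1 (-0.82 to 5.004).

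Rcor1, the widely expressed CoREST scaffold, lies on chromosome 12 from 111039351 to 111115901. It had 749 expected counts (control), 305 (TR1) and 507 (TR9), or 49.9, 19.97 and 36.1 FPKM. TR1 had the lowest level and TR9 lay between TR1 and control, with no overlap of the 3 counting intervals. Its log2 ratio was -1.32 in TR1 (-1.52 to -1.13), a 2.50-fold lower level, and -0.47 in TR9 (-0.63 to -0.30), which did not reach the fold of a DEG. The log2 ratio of TR9 over TR1 was 0.85 (0.65 to 1.06). Summed over the pair, Rcor1 and Rcor2 held 56.4 FPKM (control), 20.2 (TR1) and 36.7 (TR9). Rcor1 made up most of this sum in every library, since its FPKM was 7.73 times that of Rcor2 in control (95% interval 6.06 to 9.99), 110.9 times in TR1 (30.5 to 920.2) and 63.4 times in TR9 (28.9 to 173.4). With the lengths of the matched GENCODE M21 transcripts, the ratio was 10.8 (control), 158.3 (TR1) and 87.7 (TR9). Rcor3, the remaining CoREST paralog, had 75, 59 and 74 counts in control, TR1 and TR9, and was not a DEG.

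The cell type marker lists also differed between control and the TR libraries, some in the direction of Rcor2 and some in the other. The 10 erythroid markers summed to 2816 FPKM (control), 43.0 (TR1) and 43.2 (TR9), and 10 of 10 were lower DEGs in each line. The 8 megakaryocyte markers summed to 949.8, 3.31 and 2.32 FPKM, and 8 of 8 were lower DEGs in each line, with Pf4 and Gp6 at 0 in both. Of the 9 markers of stem and multipotent progenitor cells, 7 were lower and 1 higher in TR1 and 6 were lower in TR9, their sum was 150.6, 44.8 and 13.3 FPKM, and Hoxa9 and Slamf1 were at 0 in both. All 7 markers of mast cells, basophils and eosinophils were lower DEGs in each line, from a sum of 1155 FPKM in control to 78.3 and 88.3, with Fcer1a at 0 in TR1. All 5 stroma markers were also lower DEGs in each line, from 710.1 to 4.94 and 8.84 FPKM, with Lum at 0 in both. The 10 granulocyte markers summed to 4185, 43530 and 32220 FPKM, and 10 were higher DEGs in TR1 and 9 in TR9. Monocyte markers summed to 222.4, 569.3 and 362.0 FPKM, with 3 lower and 1 higher DEG of 5 in each line. The higher sums came from F13a1 (98.78, 543.15 and 301.44 FPKM), and Csf1r, Cx3cr1, Ccr2 and Irf8 had lower FPKM in both lines than in control. T lineage markers stayed at or under 4.98 FPKM in sum, with 1 of 6 a lower DEG in each line. In the B lineage list, the sums were 12.4, 16.7 and 199.8 FPKM, most of it from Igll1 in TR9, while Cd79a and Cd79b were at 0 in both TR libraries. Of its 6 listed genes, 1 was lower and 1 higher in TR1, and 1 was lower and 2 were higher in TR9. Control and TR libraries thus differed in cell type markers as well as in genotype and sorting, and the part of these markers in the corepressor ratios was not tested. In bulk libraries, fewer cells of a type and less RNA per cell cannot be told apart.

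**Figure D2:**
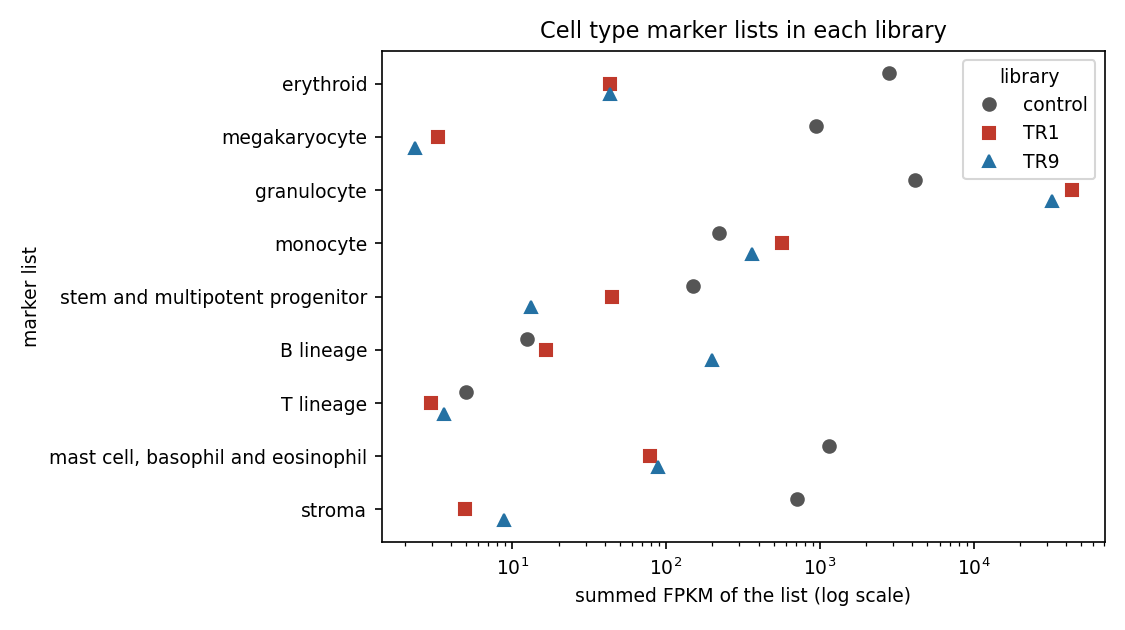
Summed FPKM (x axis, log scale) of 9 cell type marker lists (y axis) in control (grey circles), TR1 (red squares) and TR9 (blue triangles), 1 library each. Erythroid markers go from 2816 in control to 43.0 and 43.2, whereas granulocyte markers go from 4185 to 43530 and 32220.

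Tbl1xr1, which encodes TBLR1, spans 22076652 to 22216594 of chromosome 3. Its reads gave 853.6 expected counts (control), 1186 (TR1) and 980.8 (TR9), at 18.9, 25.8 and 23.2 FPKM. Both TR libraries were above control and their counting intervals did not overlap that of control. The log2 ratio was 0.45 in TR1 (0.32 to 0.58) and 0.30 in TR9 (0.16 to 0.43), below the fold of a DEG, and it stayed above 0 under all 6 scalings tried. The vector carries TBLR1 sequence, so reads of the transgene and of the mouse gene cannot be told apart in this count. How many vector reads were counted to the mouse genes is not known, since that depends on how closely the vector sequence matches the mouse one. Rara, whose sequence forms the rest of the fusion, had 58.9 counts (control), 1168 (TR1) and 358.7 (TR9). Beyond what the control's share of its library would give, Rara had 1108 counts more in TR1 and 303.7 more in TR9, and Tbl1xr1 had 319.5 and 183.0 more. TR1 was above TR9 for both genes, and whether vector reads gave these extra counts was not tested. The counts of Tbl1xr1 and Rara were not whole in any library, control included, as RSEM gives where it divides reads between genes.

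Tbl1x, the X-linked paralog of Tbl1xr1, lies from 77511013 to 77662983 on chromosome X. It had 363 counts (control), 222 (TR1) and 296 (TR9), or 28.7, 17.3 and 25.02 FPKM. TR1 was low, and the counting intervals of control and TR9 overlapped. The log2 ratio was -0.73 in TR1 (-0.98 to -0.49) and -0.20 in TR9 (-0.42 to 0.03), neither a DEG. The ratio of Tbl1xr1 to Tbl1x in FPKM was 0.66 in control (0.58 to 0.75), 1.496 in TR1 (1.30 to 1.73) and 0.93 in TR9 (0.81 to 1.06). The ratio was thus highest in TR1, with no overlap of its counting interval with the others. The Tbl1xr1 counts of TR1 and TR9 may hold vector reads, which the intervals do not cover. The ratio of the 2 mouse genes alone is therefore not known in these libraries. Which of the pair was the higher depends on the gene length: the files give 8127 bases for Tbl1xr1 and 2302 for Tbl1x, whereas the matched GENCODE M21 transcripts have 4209 and 5234 bases. With the latter lengths the ratio was 2.92 (control), 6.64 (TR1) and 4.12 (TR9), so Tbl1xr1 was the higher in each library, and the order of the libraries did not change. No stretch of 50 bases of the Tbl1x transcript was found in a transcript of any other gene in GENCODE M21, and the Tbl1xr1 transcript shared 18 of 4160 such stretches with other genes, none of them Tbl1x, although these transcripts are not of the lengths used in the files.

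**Figure D3:**
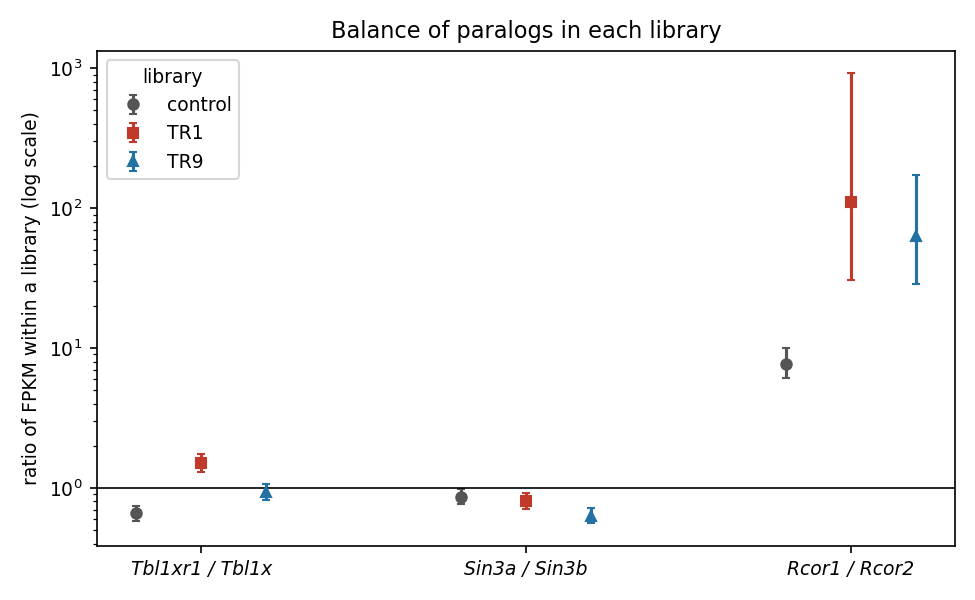
Ratio of FPKM within a library (y axis, log scale) for 3 pairs of paralogs (x axis) in control (grey circles), TR1 (red squares) and TR9 (blue triangles), with 95% counting intervals as bars and a line at a ratio of 1. Tbl1xr1 to Tbl1x is 0.66 in control and 1.496 in TR1 with the gene lengths of the files (with GENCODE lengths it is above 1 in all 3 libraries), and Rcor1 to Rcor2 is 7.73 in control and above it in TR1 and TR9. The Tbl1xr1 counts of TR1 and TR9 may hold vector reads. With GENCODE lengths Rcor1 to Rcor2 is 10.8 in control.

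Ncor1, the NCoR scaffold, at 62316426 to 62458541 of chromosome 11, had the most counts of the members. It had 3302 counts (control), 3278 (TR1) and 4034 (TR9), at 70.5, 69.4 and 93.5 FPKM. Control and TR1 were alike within counting error, and TR9 was above both. The log2 ratio was -0.02 in TR1 (-0.09 to 0.05), where it was above 0 in 3 of 6 scalings, and 0.41 in TR9 (0.34 to 0.47), which was not a DEG but above 0 in all 6. Ncor1 counts were not whole, which RSEM gives where reads fit several genes.

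Hdac3, the deacetylase of the complex, lies on chromosome 18 from 37935844 to 37955016. It had 542 counts (control), 366 (TR1) and 388 (TR9), at 49.3, 32.7 and 37.7 FPKM. Both TR libraries were below control and overlapped each other in their counting intervals. The log2 ratio was -0.59 in TR1 (-0.79 to -0.40) and -0.39 in TR9 (-0.58 to -0.20), not a DEG in either line and below 0 in all 6 scalings. Gps2, the small subunit that also restrains JNK signaling, lies on chromosome 11 from 69913888 to 69916591. It had 547 counts (control), 399 (TR1) and 322 (TR9), at 82.8, 59.3 and 52.1 FPKM. The log2 ratio was -0.48 in TR1 (-0.67 to -0.29) and -0.67 in TR9 (-0.87 to -0.47), again without reaching the fold of a DEG. For Gps2, too, the ratio was below 0 in all 6 scalings in both lines.

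**Figure D4:**
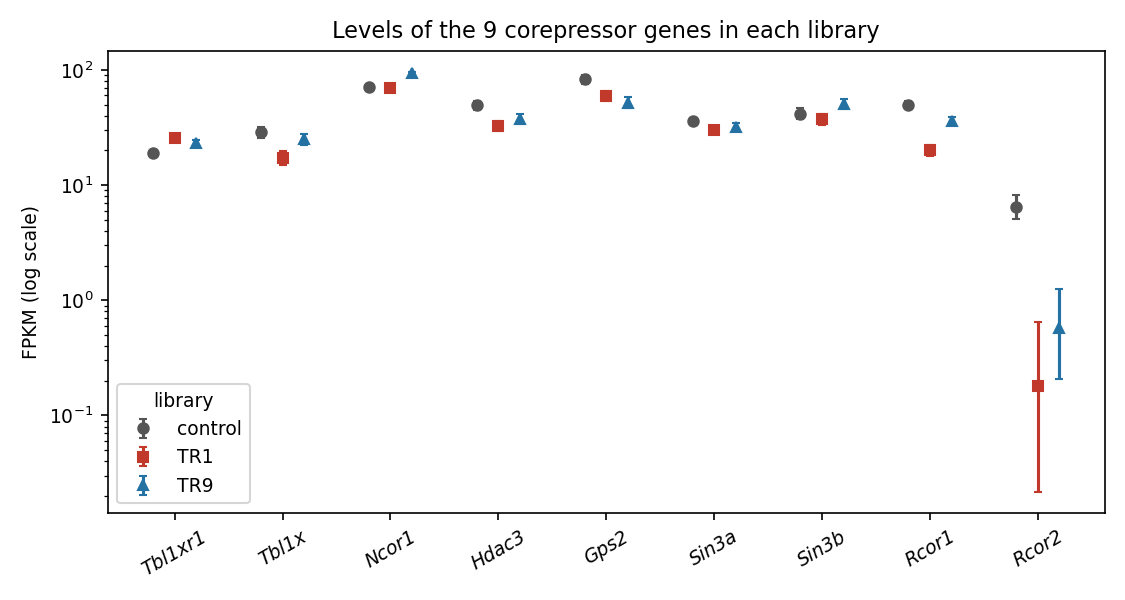
FPKM (y axis, log scale) of the 9 corepressor genes (x axis) in control (grey circles), TR1 (red squares) and TR9 (blue triangles), 1 library each, with 95% counting intervals as bars. The other 8 genes lie between 17.3 and 93.5 FPKM in all 3 libraries, and Rcor2 lies at 6.46 in control and under 1 in TR1 and TR9.

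Sin3a, at 57072040 to 57128366 of chromosome 9, had 1002 counts (control), 844 (TR1) and 838 (TR9), at 36.0, 29.9 and 32.2 FPKM. Its log2 ratio was -0.27 in TR1 (-0.40 to -0.13) and -0.16 in TR9 (-0.29 to -0.03), beside all-gene medians of -0.29 and -0.12. Sin3b, at 72723285 to 72758201 of chromosome 8, had 346 counts (control), 299 (TR1) and 364 (TR9), at 41.8, 37.2 and 50.8 FPKM. Its log2 ratio was -0.17 in TR1 (-0.40 to 0.06), above 0 in 2 of 6 scalings, and 0.28 in TR9 (0.07 to 0.50), above 0 in all 6. Neither SIN3 scaffold was a DEG in any comparison. The FPKM of Sin3a was 0.86 times that of Sin3b in control (0.76 to 0.98), 0.81 times in TR1 (0.71 to 0.92) and 0.63 times in TR9 (0.56 to 0.72). With GENCODE lengths these ratios were 1.46, 1.43 and 1.16, so the order of the pair depends on the length used. The TR9 value was the lowest with either length, with a counting interval (1.03 to 1.32) that overlapped the others with GENCODE lengths. The Sin3b difference rests in part on transcript length. The files list 2 transcripts for Sin3b, and its gene length, which RSEM weights by their abundance, was 1519 bases (control), 1453 (TR1) and 1408 (TR9), a shift toward the shorter transcript. From counts alone, without length, the log2 ratio of Sin3b in TR9 was 0.17. For Ncor1 the weighted lengths of 8437, 8352 and 8304 bases moved the TR9 ratio only from 0.41 to 0.39.

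In the direct comparison of the 2 lines, none of the members was a DEG. The log2 ratio of TR9 over TR1 was 0.85 for Rcor1, 0.54 for Tbl1x (0.28 to 0.79), 0.45 for Sin3b (0.23 to 0.68) and 0.43 for Ncor1 (0.36 to 0.50), and these intervals lay above 0. For Tbl1xr1 it was -0.15 (-0.28 to -0.03), the only interval below 0. For Hdac3, Gps2, Sin3a and Rcor2 the interval included 0. The median of the members was 0.43, against 0.13 over all genes, and 7 of 9 ratios were above 0, or 6 with TMM scaling. All these ratios except that of Rcor2 were within 2-fold.

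The order of levels within a library describes which subunits had the most RNA per length, with the gene lengths of the files. These lengths differed by over 1.5 times from those of the matched GENCODE transcripts for Tbl1xr1, Tbl1x and Sin3b. For Ncor1 they differed by 1.31 times (8437 bases in control against 6422) and for Rcor2 by 1.39 times (2035 against 2823). For Gps2 they were the same. The ranks of Tbl1xr1, Tbl1x, Sin3b and Ncor1 thus depend on the transcripts used, and so does which of Gps2 and Ncor1 led in control. In control, Gps2 (82.8 FPKM) was followed by Ncor1 (70.5), then Rcor1 (49.9) and Hdac3 (49.3), and the last 2 did not differ beyond counting error. Tbl1x, Tbl1xr1 and Rcor2 were the lowest. In TR1 and TR9 the order was led by Ncor1, at 69.4 and 93.5 FPKM, ahead of Gps2 at 59.3 and 52.1. Gps2 and Sin3b (50.8 FPKM) did not differ beyond counting error in TR9. Rcor1 moved from rank 3 in control to rank 7 in TR1 and rank 5 in TR9. The 9 genes summed to 384.5 FPKM (control), 291.8 (TR1) and 351.3 (TR9).

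The other subunits of the same complexes were read from lists written by name. The all-gene shares beside each list are 13% lower and 8.09% higher DEGs in TR1, and 10.8% and 9.37% in TR9. Of 9 further genes of the NCoR complex, which include class IIa deacetylases that bind its scaffold, 2 were lower DEGs in TR1, and 1 was lower and 1 higher in TR9. The medians were -0.34 (TR1) and -0.26 (TR9). Coro2a, a coronin found in purified NCoR complexes, was lower in both lines, with 498.1 counts (control), 63.8 (TR1) and 20.1 (TR9) and log2 ratios of -2.98 (-3.38 to -2.60) and -4.53 (-5.25 to -3.89). Hdac7 was a lower DEG only in TR1 (689, 170 and 344 counts in control, TR1 and TR9), and Hdac9 a higher DEG only in TR9 (41, 21 and 102.0 counts). Compared directly, both were higher DEGs in TR9 than in TR1, Hdac7 in 5 of 6 scalings and Hdac9 in all 6. Coro2a was a lower DEG in TR9 than in TR1 in all 6, with a log2 ratio of -1.55 (-2.35 to -0.80). Among all genes, 2.31% were lower and 4.34% higher DEGs between the lines. Hdac7 and Hdac9 were named after their values were seen.

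Of 23 further SIN3 genes, 3 were lower and 1 was higher in TR1, and 1 was lower in TR9, with medians of -0.36 and -0.16. Among all genes tested 13% were lower and 8.09% higher in TR1, and 10.8% and 9.37% in TR9. Tet1, a 5-methylcytosine dioxygenase that can associate with SIN3A, was the only lower DEG of this list in both lines. It had 195.0 counts (control), 3 (TR1) and 9 (TR9), with log2 ratios of -5.96 (-8.25 to -4.39) and -4.38 (-5.53 to -3.42). The deacetylases Hdac1 and Hdac2, which both SIN3 and CoREST use, were not DEGs in either line, with log2 ratios of -0.20 and -0.59 in TR1 and -0.26 and -0.40 in TR9. Also called in TR1 were Kdm5b (-1.57), Brms1l (-1.01) and Sap30 (1.22), named after their values were seen, and of these Brms1l was a DEG in only 3 of 6 scalings and Sap30 in 5. Between the lines, 2 of the 23 were higher DEGs in TR9 and 0 were lower. These were Kdm5b and Sap30l, each in all 6 scalings, and Sap30l too was named after its values were seen.

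Of 13 further CoREST genes, 2 were lower and 1 was higher in each line, and these were the same 3 genes in TR1 and TR9. Among all genes, 8.39% were lower and 5.67% higher in both lines. The medians were -0.51 in TR1 and -0.06 in TR9, and the TR9 median was 0.05 with TMM scaling. Gfi1b, a repressor of erythroid and megakaryocyte cells that recruits CoREST and LSD1, had 870 counts (control), 0 (TR1) and 1 (TR9). With a floor of 3 counts in the library in place of 0, the TR1 level was 294.4-fold lower. The 95% interval of its log2 ratio reached up to -7.90, which allows a somewhat smaller difference. The log2 ratio for TR9 was -9.70 (-15.0 to -7.22), and no order between the lines can be read from 0 and 1 counts. Gfi1, its paralog in myeloid cells, had 193 counts (control), 2002 (TR1) and 2553 (TR9), with log2 ratios of 3.37 (3.15 to 3.59) and 3.84 (3.63 to 4.06). Per length, control held 91.8 FPKM of Gfi1b and 12.9 of Gfi1, and the TR libraries held 133.4 and 184.7 FPKM of Gfi1. Gse1 was lower in both, at -1.29 and -1.02, although in TR9 it was a DEG in only 3 of 6 scalings. Kdm1a, the demethylase LSD1, had 504, 318 and 324 counts in control, TR1 and TR9 and was not a DEG. Between the lines, 13 of 13 CoREST genes had a positive log2 ratio of TR9 over TR1, with a median of 0.47 against 0.13 over all genes. However, the sign for Gfi1b rests on 0 and 1 counts and cannot be read, and Ctbp1 and Rest turned negative under another scaling. Only Phf21a was a DEG (165 counts in TR1, 351 in TR9).

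**Figure D5:**
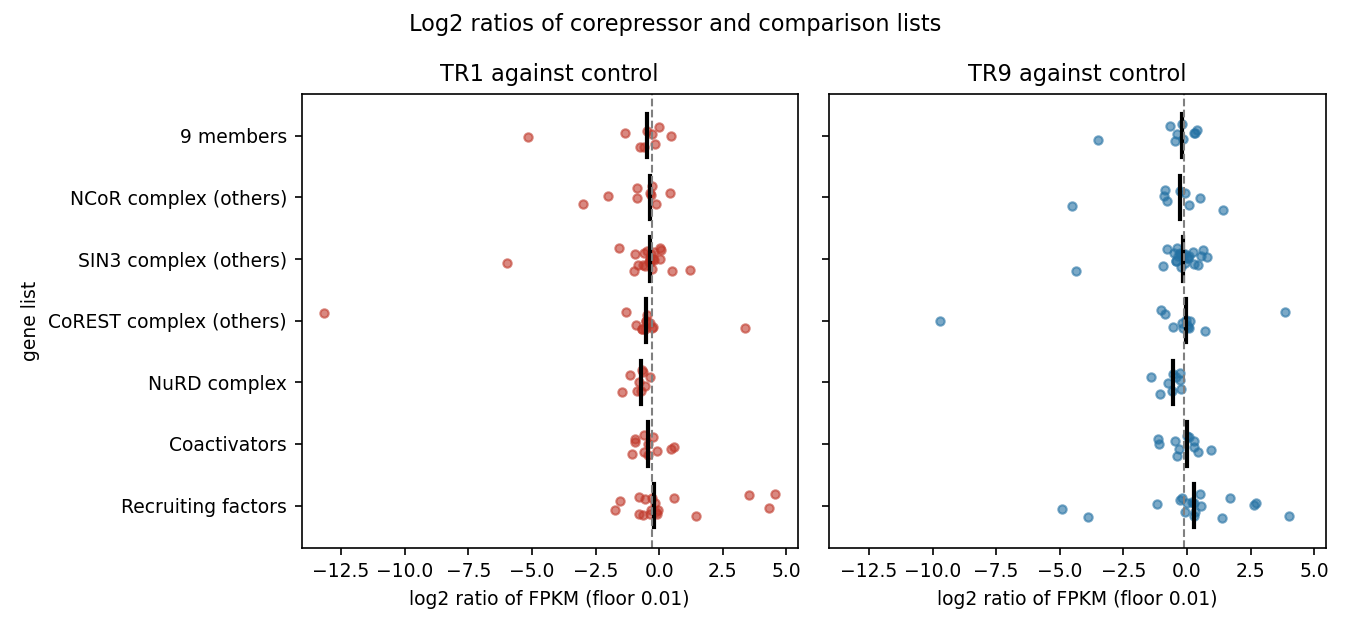
Log2 ratio of FPKM against control (x axis) for each gene (points) of the 9 corepressor genes and 6 comparison lists (y axis), in TR1 (left, red) and TR9 (right, blue), with FPKM under 0.01 set to 0.01. Black bars are list medians and the dashed line is the median of all listed genes (-0.29 in TR1, -0.12 in TR9); most points lie near the dashed line, with Gfi1b far to the left and Gfi1 to the right in the CoREST list.

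The NuRD complex, which also holds HDAC1 and HDAC2 but none of the 9 genes, was read for comparison. All 9 of its listed genes had log2 ratios below 0 in TR1 and in TR9. The medians were -0.70 and -0.55, or -0.46 and -0.44 with TMM scaling. Only Chd3 (-1.16 and -1.41) and Mta3 (-1.46 and -1.06) were DEGs in both lines, Chd3 in 4 of 6 scalings in TR1 and Mta3 in 3 of 6 in TR9. Over the 6 lists together, 20.5% of 83 genes were DEGs in TR1 and 20.5% in TR9, against 21.1% and 20.2% of all genes tested. Between the lines, 3 of the 83 were lower and 6 higher in TR9 than in TR1. These make up 10.8%, against 6.65% of all genes tested.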

How the data were processed

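RNA-seq libraries of control, TR1 and TR9 cells were analysed, 1 per condition. After read filtering, the authors used BWA and Bowtie for mapping and RSEM for quantification. They deposited the expected count of each gene, not normalized, and the FPKM, scaled for gene length and library total. The build in the submitters' processing notes is mm9, and software versions are not given in the sources used here. Gene IDs were matched to RefSeq symbols (16698 of 16742), and gene positions were taken from GENCODE M21, a later build than mm9, because the files hold no positions. Genes missing from a library were set to 0. Library totals were between 5129662 and 5571409 expected counts.

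Pairs of libraries were compared on rounded expected counts, over every gene listed in either, with an exact Poisson test conditional on the sum (scipy 1.17.1) and false discovery rates by Benjamini-Hochberg. The FPKM floor was 0.01. Intervals are exact (Clopper-Pearson), at 95%. They cover counting error only. No test over conditions was possible. TMM used edgeR 4.0.16 in R 4.3.3. In a test on simulated data, 188 of 200 genes made to differ 4-fold were recovered for TR1 against control (16282 genes). For TR9 (16303 genes) 191 were recovered, and 0 other genes were called in each. The simulated counts held Poisson error only, and the changed genes were picked above a minimum count. Such data hold no variation between mice, so they do not show how many calls that variation would give.

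The members and lists were chosen with earlier results of these data known. Named were the 9 genes, from each list up to 3 DEGs of largest mean absolute log2 ratio that had the same direction in both lines, Rara, and the gene nearest to each member in its 2 log2 ratios among list genes with at least 50 counts in a library. Rcor3, Hdac1, Hdac2, Kdm1a and other genes were named for their role or after their values were seen. Alternatives were other scalings (TMM, median of ratios, upper quartile, TPM), counts without length, a pseudocount of 1 FPKM, a floor of 0.001, minimum levels, other fold and false discovery thresholds, and edgeR's exact test at an assumed biological coefficient of variation of 0.2. Some genes of the lists are counted in them but not reported here by name.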

Additional observations from a re-analysis of the deposited data

How the results depend on the processing

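With 1 library per condition, no replicate could be left out and no paired analysis was possible. Rcor2 was called lower in TR1 and TR9, and Rcor1 in TR1, under every scaling, floor, pseudocount and minimum level tried. The member counts changed only with the thresholds and the test. With an absolute log2 ratio of at least 2, 1 member was lower in TR1 (Rcor2). With at least 0.5, 4 were lower in TR1 (Tbl1x and Hdac3 in addition), 2 in TR9 (Gps2 in addition), and 2 had a higher level in TR9 than in TR1 (Tbl1x and Rcor1). At 0.5, the lower DEGs over all genes were 3744 of 16282 in TR1 and 3085 of 16303 in TR9. The fold alone gave 1 member, Rcor2, higher in TR9 than in TR1. The edgeR exact test at an assumed variation of 0.2 gave 1 lower member in TR1, Rcor2.

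Counts over all genes moved by more than 1.5 times with the same settings. They are out of 16282 genes tested in TR1, 16303 in TR9 and 15706 in TR9 against TR1. A log2 ratio of at least 2 gave 685 higher and 1133 lower genes in TR1, 737 and 928 in TR9, and 283 and 135 in TR9 against TR1. One of at least 0.5 gave 3744 lower genes in TR1, 3085 in TR9, and 1435 higher and 737 lower in TR9 against TR1. The fold alone gave 2802 higher and 4295 lower genes in TR1, 3199 and 3760 in TR9, and 2658 and 1763 between the lines. The edgeR exact test gave 657 higher and 992 lower in TR1, 717 and 830 in TR9, and 188 and 94 between the lines.

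All list medians in TR1 moved with the scaling, and only that of the recruiting factors changed sign. It was -0.22 with library totals and 0.02 with TMM and with the median of ratios. With TMM, the median of ratios and TPM, the other medians were -0.10, -0.10 and -0.57 for NCoR, and -0.12, -0.12 and -0.59 for SIN3. They were -0.27, -0.27 and -0.73 for CoREST, -0.46, -0.46 and -0.93 for NuRD, and -0.22, -0.21 and -0.68 for coactivators. The cause of these shifts is the scaling itself, which adds the same amount to every ratio. Depth limits Rcor2, with 2 and 6 counts in the TR libraries. Ratios between paralogs were also computed with GENCODE lengths, chosen after seeing the data, and the pairs Tbl1xr1 and Tbl1x, and Sin3a and Sin3b, then lay above 1 in each library (Tbl1xr1 to Tbl1x 2.92 and Sin3a to Sin3b 1.46 in control).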

Other observations

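The partners that bring NCoR to DNA, and the coactivators that replace it, were read in the same libraries. Of 18 recruiting factors, 4 were higher and 1 lower in TR1, and 5 were higher and 2 lower in TR9. Among all genes tested 8.09% were higher and 13% lower in TR1, and 9.37% and 10.8% in TR9. Higher in both lines were Rara, whose count may hold reads of the vector, and Rarb, Bcl6 and Rxra, and lower in both was Cbfa2t3, an ETO-family corepressor of erythroid and megakaryocyte cells. Rarb, a retinoic acid receptor gene, had 2 counts (control), 48 (TR1) and 30 (TR9), with log2 ratios of 4.56 (95% counting interval 2.63 to 7.65) and 4.01 (2.03 to 7.12). Bcl6, a zinc finger repressor that binds NCoR directly, had 21, 245 and 122 counts, with log2 ratios of 3.52 (2.88 to 4.24) and 2.64 (1.96 to 3.38). Cbfa2t3 had 721, 255 and 299 counts and log2 ratios of -1.53 and -1.18. Zbtb16, which encodes PLZF, had 67.5, 40.1 and 4.13 counts and was lower in TR9 than in TR1 in all 6 scalings, and Rarg had 90, 89 and 270 counts and was higher in TR9 than in TR1 in all 6. Rxra, Cbfa2t3, Zbtb16 and Rarg were named after their values were seen.

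Of 11 coactivators, 1 was lower in TR1 and 2 were lower in TR9, and none was higher, which is near the shares over all genes. Their medians were -0.45 and 0.01. Carm1, an arginine methyltransferase that acts with the p160 coactivators, had 967, 471 and 422 counts in control, TR1 and TR9 and log2 ratios of -1.07 (-1.23 to -0.91) and -1.11 (-1.28 to -0.95), and in TR1 it was called in 3 of 6 scalings.

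By distance between the pairs of log2 ratios in TR1 and TR9, over 3 libraries and 78 list genes, the gene nearest to Hdac3 was Hdac2 (distance 0.011), to Sin3a Rest (0.0055), to Sin3b Cbfa2t2 (0.014), to Ncor1 Ing1 (0.063), to Tbl1x Hmg20b (0.080), to Gps2 Sinhcaf (0.15), to Tbl1xr1 Ep300 (0.19) and to Rcor1 Kdm5b (0.25). For Rcor2 the closest gene was Tet1, 1.18 away. The counting intervals of Rcor2 held both log2 ratios of Tet1, so this distance is within counting error. Both ratios of a pair share the control library, and ratios near the bulk of the genes have near neighbors by their number alone.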
